A study of Mus musculus with 12 samples.

Results

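The clustered and linker histone genes were followed in mouse liver. They encode the linker histone H1 and the core histones H2A, H2B, H3 and H4, and were taken as every gene whose name is H1f, H2ac, H2bc, H3c or H4c followed by a number. The gene table held 57180 genes and 72 of them met this rule, with 11 H1, 18 H2A, 18 H2B, 12 H3 and 13 H4 genes. Most of the set, 54 genes, lay on chromosome 13, with 10 on chromosome 3, 3 on chromosome 6, 3 on chromosome 11 and 2 on chromosome 15.

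The livers came from 12 mice of a Cockayne syndrome model, with 3 females and 3 males of the genotype labelled Het and as many of that labelled KO. All 12 mice were Csa-/- and all had received AAV9-CSA, a vector carrying human CSA behind the ubiquitous CBA promoter, by injection into the brain ventricles as newborns. Het mice were Csa-/-;Xpa+/- littermates matched in age, and KO mice were taken at their humane endpoint, so genotype and disease stage cannot be told apart. By the labels and the methods of the study KO stands for Csa-/-;Xpa+/+, but its results describe the diseased mice as lacking both Csa and Xpa. Xpa measured 3.10 to 6.34 CPM (counts scaled to the size and composition of the library) in Het livers and 0.992 to 1.83 CPM in KO livers. Every KO liver was thus below every Het liver, the direction of a loss of Xpa and not of Xpa+/+. Ercc8, the mouse Csa gene, measured 5.10 to 8.68 CPM in Het livers and 14.8 to 33.997 CPM in KO livers. As all mice were Csa-/-, these counts do not show working mouse Csa. Whether some came from the human CSA of the vector was not tested. KO and Het are used here as the labels of the livers. Between 30044812 and 43634073 counts were assigned to genes per liver, of which 11110 to 22428 fell on the histone genes.

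Most of these genes are replication-dependent. Their transcripts peak in S phase, when new DNA must be packaged, and they end in a conserved stem-loop instead of a poly(A) tail. The stem-loop is bound by the protein Slbp, which directs processing, translation and decay of the message. Liver is a tissue in which few cells divide, and a small number of histone genes, H1f0 being the classical case, stay active in resting cells and are known to make polyadenylated messages. The libraries were made from total RNA depleted of ribosomal RNA, so transcripts with and without a poly(A) tail were both counted.

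The stem-loop was searched for as GGNNCTTTNNAGNNCC, on the coding strand, in the 150 bases after the stop codon in GRCm39. It was found in 63 of the 72 genes, against 0.0973% of 21593 other coding genes, and began 21 to 58 bases after the stop codon with a median of 30. The genes without it were H1f0, H1f7, H1f8, H1f9, H1f10, H2ac22, H2bc21, H3c8 and H4c1. The stem-loops of the genes whose level differed between genotypes are shown here because they are the end of the message that most of the set shares. Capitals mark the 16 bases of stem and loop, whose coordinates are given, and lower case marks 5 bases on each side.
H2bc4, chr13:23868630-23868645, plus strand: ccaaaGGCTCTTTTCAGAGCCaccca
H2ac19, chr3:96147100-96147115, minus strand: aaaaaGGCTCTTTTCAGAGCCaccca
H3c1, chr13:23945873-23945888, minus strand: ccaaaGGCTCTTTTCAGAGCCacaca
H4c8, chr13:23715628-23715643, plus strand: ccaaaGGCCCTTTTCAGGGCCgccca
H4c3, chr13:23882072-23882087, minus strand: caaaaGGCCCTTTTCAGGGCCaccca
H1f2, chr13:23923495-23923510, plus strand: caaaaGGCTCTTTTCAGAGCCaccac
H1f5, chr13:21964007-21964022, minus strand: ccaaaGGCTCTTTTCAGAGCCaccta
H3c10, chr13:21902265-21902280, plus strand: tcaaaGGCTCTTTTCAGAGCCaccca
H4c6, chr13:23735465-23735480, minus strand: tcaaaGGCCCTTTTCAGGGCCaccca
H4c12, chr13:21934320-21934335, minus strand: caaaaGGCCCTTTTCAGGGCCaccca
The first 5 of these genes were lower in KO livers and the last 5 were higher, yet within a family the capital letters were the same in both directions. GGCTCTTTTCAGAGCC was the commonest form, in 41 genes of the H1, H2A, H2B and H3 families. In the H4 family 8 genes held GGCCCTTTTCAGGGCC, 2 held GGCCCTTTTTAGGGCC, 2 held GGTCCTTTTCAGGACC, and H4c1 held none. For 16 of the 63 genes with a stem-loop, H1f5, H3c10 and H4c12 among them, the gene annotated in GENCODE M39 ended before the stem-loop did. The counts were made with GENCODE M34, whose gene ends were not checked, so whether reads over that end were counted is not known.

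Families also differed in the letters before their start sites. In the 250 bases before and 50 after the annotated gene start, on either strand, CCAAT was found in 18 of 18 H2A, 16 of 18 H2B and 11 of 12 H3 genes but in 3 of 13 H4 genes, and in 39.6% of other coding genes. GGTCCG, part of an element known from H4 promoters, was found in 12 of 13 H4 genes and in 7.92% of other coding genes. The octamer ATTTGCAT was found in 7 H2A and 6 H2B genes and in no gene of the other families, against 1.62% of other coding genes. TATAAA was found in 7 of 13 H4 genes and 12 of 18 H2A genes, against 13.5%. None of these motifs overlap in the stretches printed here. The 100 bases before the annotated gene start of H4c8, which fell in KO livers, and of H4c12, which rose, are shown with GGTCCG and TATAAA in capitals.
H4c8, chr13:23715120-23715219, plus strand: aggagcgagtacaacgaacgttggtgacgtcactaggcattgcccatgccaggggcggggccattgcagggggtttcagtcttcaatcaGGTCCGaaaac
H4c12, chr13:21934676-21934775, minus strand: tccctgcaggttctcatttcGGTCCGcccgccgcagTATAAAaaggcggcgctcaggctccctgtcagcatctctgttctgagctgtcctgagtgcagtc
Both genes carried GGTCCG on the coding strand, 11 bases before the annotated start in H4c8 and 80 bases before it in H4c12. TATAAA was found before H4c12 only, 64 bases from the start. The annotated start of H4c12 lies next to its coding sequence, so the distances of the genes are not measured from the same kind of point.

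Of the 72 genes, 61 passed the filter on low counts, set at 5 reads or more in no fewer than 3 livers after scaling to the median library. The other 11 had at most 5 counts in any liver and 5 of them had none in any. They were H1f6, H1f7, H1f8, H1f9, H1f10, H2ac1, H2ac22, H2bc1, H2bc22, H2bc27 and H3c14, among which H1f6, H1f7, H1f9, H2ac1 and H2bc1 are known from testis and H1f8 from the oocyte. Levels were compared between genes in TPM, which corrects for transcript length. Averaged over the 12 livers, H2ac19 was highest at 69.9 TPM, followed by H4c8 at 55.6, H2bc4 at 45.2, H1f2 at 25.7 and H1f0 at 23.4 TPM. These 5 genes held 57.1% of the summed histone TPM, and the 14 highest held 83.9%. The median of the 61 tested genes was 1.18 TPM, so most histone genes were measured at low levels.

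Summed over families, the H2B genes showed the clearest difference. Het livers held 73.7, 98.8 and 120.1 CPM of H2B transcripts as lowest, median and highest, and KO livers held 35.1, 54.3 and 58.6 CPM. Every KO liver was below every Het liver, and the mean in KO livers was 0.527 of that in Het livers, at 51.3 ± 8.54 against 97.4 ± 15.7 CPM (SD, n = 6 each). The ratio was 0.517 in females and 0.536 in males. Summed H2A reached 43.1 to 86.9 CPM in Het livers and 39.98 to 50.7 CPM in KO livers, and summed H4 reached 70.9 to 122.04 and 62.7 to 88.0 CPM. In both families the genotypes overlapped over all livers but not among males. Summed H3 was 11.4 to 20.5 CPM in Het and 12.0 to 18.5 CPM in KO livers, and summed H1 was 104 to 181 and 118.4 to 229 CPM, with overlap in both. Fewer cells of a type and less RNA per cell cannot be told apart in such sums.

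**Figure D1:**
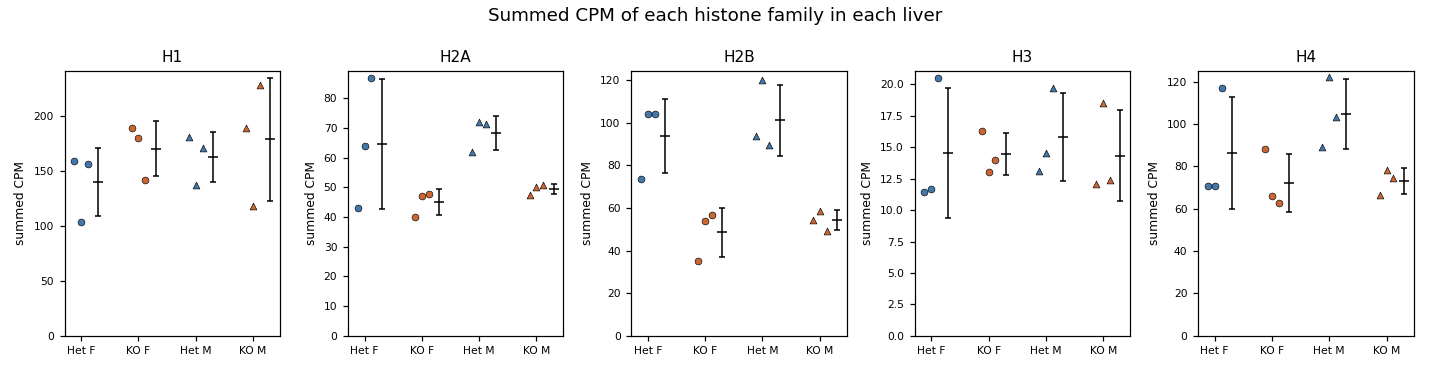
Summed CPM of the H1, H2A, H2B, H3 and H4 genes in each of the 12 livers, by genotype and sex (circles, females; triangles, males; bars, mean ± SD of 3 livers). In the H2B panel the KO livers lie between 35.1 and 58.6 CPM, below the lowest Het liver at 73.7 CPM, while the H1 and H3 panels overlap.

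Each gene was then tested between genotypes over both sexes. A gene was called when the Benjamini-Hochberg adjusted p of the edgeR quasi-likelihood test, adjusted over 19350 genes, was under 0.05. Of the 61 tested histone genes 5 rose in KO livers, H1f2, H1f5, H3c10, H4c6 and H4c12, and 6 fell, H2bc4, H2ac19, H3c1, H4c1, H4c3 and H4c8. That is 8.20% higher and 9.84% lower, against 12.2% higher and 10.2% lower among all tested genes, so neither share of calls exceeded the background in this fit. The median log2 fold change (KO over Het) of the tested histone genes was -0.29, against 0.02 over all genes. Without liver Het_F_126 this median was -0.14, and with limma on log2(TPM + 1), a scale that compresses low genes, it was -0.12. In the edgeR fit the change was below 0 for 45 of the 61, or 73.8%, against 48.2% of all genes, and most of these single values did not pass the test. Every KO liver was above every Het liver for 1 histone gene, H4c6, and below for 2, H2bc4 and H4c8, against 4.72% and 4.64% of all genes. The count of called genes was 6 without liver Het_M_125 and 15 without liver KO_M_122. Among the alternatives the share of lower calls lay on either side of the background. It was furthest above it without KO_M_122 (18.3% against 9.37% of all genes), with at least 10 reads in every liver (16.7% against 11.4%), without Het_F_115 (14.8% against 9.74%) and without a filter on low counts (8.96% against 4.98%). Below it were the fits without Het_F_126 (6.56% against 9.24%), KO_F_123 (8.33% against 10.8%), KO_F_112 (6.56% against 9.02%) or Het_M_137 (6.56% against 8.72%). The same held without KO_M_136 (6.56% against 8.22%), Het_M_125 (6.56% against 7.96%) or KO_M_118 (6.56% against 7.82%). With DESeq2 (11.5% against 12.2%), relative log expression scaling (9.84% against 10.2%) and unrounded counts (9.84% against 10.7%) it was also below.

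**Figure D2:**
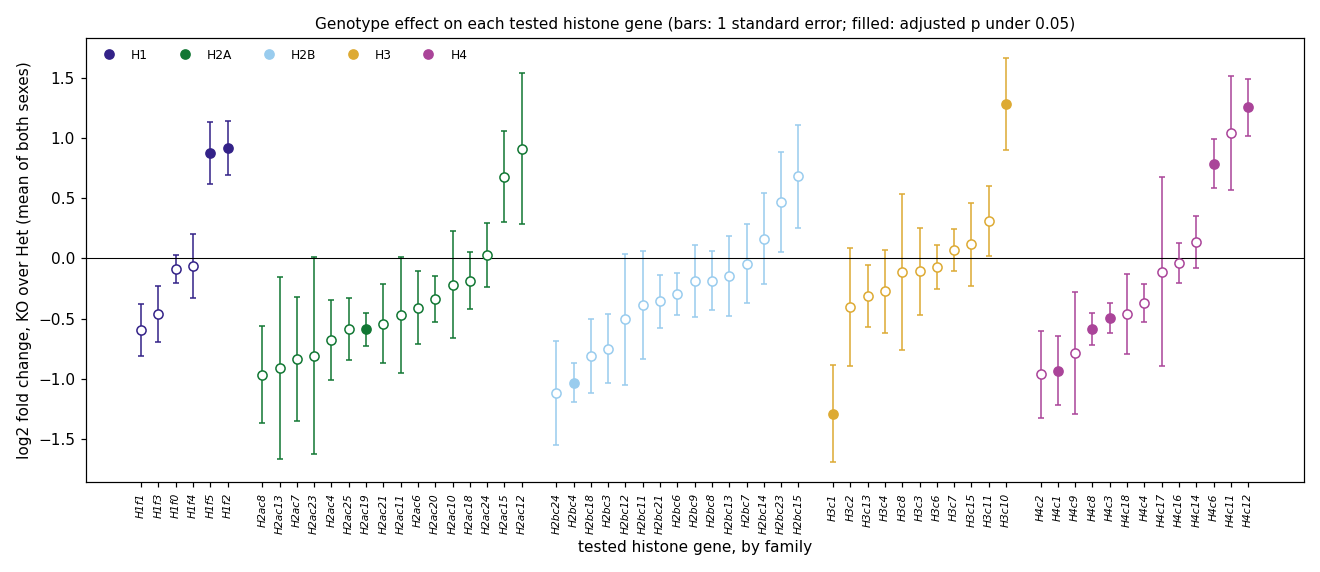
Log2 fold change (KO over Het, mean of the sexes) of each of the 61 tested histone genes, sorted within its family, with bars of 1 standard error. Filled points are the 11 genes with an adjusted p under 0.05. They lie on both sides of 0 in H3 and H4, above 0 in H1 and below 0 in H2A and H2B.

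By family, 2 of 6 tested H1 genes passed the test, both higher (33.3%). In H4 5 of 13 genes passed, 2 higher (15.4%) and 3 lower (23.1%). In H2A 1 of 16 passed (6.25%) and in H2B 1 of 15 (6.67%), both lower, and in H3 1 of 11 rose and 1 fell (9.09% each). Among all tested genes 12.2% were higher and 10.2% lower. Of the 16 histone genes with a mean of at least 5 TPM, 3 rose (18.8%) and 4 fell (25%). Of the 45 tested genes under 5 TPM, 2 rose and 2 fell (4.44% each), and the shares of all genes were not split by level. The family medians were -0.07 for H1, -0.51 for H2A, -0.29 for H2B, -0.11 for H3 and -0.37 for H4 on the log2 scale. Of the 57 tested genes that carried the stem-loop 5 rose and 5 fell (8.77% each). Of the 4 tested genes without it 1 fell, which is too few genes for a comparison by stem-loop.

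H2bc4, which encodes a core histone H2B and was the highest H2B gene, had the lowest p of the set. It measured 63.6, 94.1 and 87.8 CPM in the Het females, 83.9, 107.8 and 75.0 in the Het males, 25.8, 46.2 and 46.5 in the KO females and 46.8, 45.7 and 40.01 in the KO males. All KO livers were below all Het livers in both sexes. The log2 fold change was -1.03 (SE 0.16, adjusted p = 0.0014 by edgeR), which is 49.0% of the Het level. H2bc4 made up 72.3 to 85.2% of the H2B TPM in Het livers and 58.5 to 77.5% in KO livers. The other H2B genes together held 9.77 to 15.99 CPM in Het and 7.77 to 12.9 CPM in KO livers and overlapped, so the separation of the H2B sum rested on H2bc4. The gene spans chr13:23867631-23878163 on the plus strand in GENCODE M39, shares 15.8% of its 31-base words with other genes, and overlaps Gm55646 on the same strand. That share covers all annotated transcripts of the span, so it does not show that reads of the coding part were unique. H2bc4 was the chief partner of H2bc8 (56.3% of words shared), H2bc12 (75.3%) and H2bc7 (73.5%), among others.

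H2ac19, an H2A gene of the chromosome 3 cluster, measured 30.7, 44.7 and 58.6 CPM (lowest, median, highest) in Het livers and 24.0, 30.6 and 32.1 CPM in KO livers. Only the lowest Het liver, a female, came below the highest KO liver, a male, and within each sex the genotypes did not overlap. The log2 fold change was -0.59 (SE 0.14, adjusted p = 0.0112 by edgeR). All of its 31-base words occur in other genes of GENCODE M39, chiefly H2ac18, and reads shared in this way are divided by estimation. H2ac18 itself had 3.83 to 12.9 CPM in Het and 4.71 to 9.69 CPM in KO livers (log2 fold change -0.18, SE 0.23, adjusted p = 0.611).

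Among the H4 genes the 2 most abundant were lower. H4c8 measured 21.98, 29.99 and 40.4 CPM in Het livers and 18.8, 19.8 and 21.04 CPM in KO livers, without overlap (log2 fold change -0.58, SE 0.13, adjusted p = 0.0093 by edgeR), and shares 50% of its 31-base words with other genes. H4c3 measured 15.0, 21.5 and 26.7 CPM in Het and 12.1, 14.2 and 17.0 CPM in KO livers (-0.49, SE 0.13, adjusted p = 0.0164 by edgeR). For H4c3 the genotypes overlapped in females and not in males. H4c4, the next most abundant, measured 14.4 to 24.9 and 12.1 to 19.8 CPM and did not pass (-0.37, SE 0.16, adjusted p = 0.108). H4c1, which lacked the stem-loop, fell from a median of 1.68 to 0.723 CPM (-0.93, SE 0.28, adjusted p = 0.0345).

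The H4 genes that rose lay below H4c3 and H4c8 in level, at a mean of 8.88 TPM for H4c6 and 5.33 TPM for H4c12, and above H4c1 at 2.27 TPM. H4c12 measured 0.789, 1.28 and 1.60 CPM in the Het females, 0.234, 0.455 and 0.224 in the Het males, 2.32, 1.76 and 2.25 in the KO females and 1.31, 0.787 and 1.36 in the KO males. KO livers were above Het livers within each sex, but both genotypes were higher in females, so that the lowest KO male lay below the highest Het female. The log2 fold change was 1.25 (SE 0.24, adjusted p = 0.0040 by edgeR). H4c6 measured 1.68, 2.16 and 2.85 CPM in Het livers and 2.85, 3.37 and 6.17 CPM in KO livers, where the closest livers lay at 2.846 and 2.848 CPM (log2 fold change 0.79, SE 0.21, adjusted p = 0.0187). H4c12 shares 86.2% and H4c6 53.2% of their 31-base words with other genes, and H4c1 shares 36.6% and H4c3 22.2%. The values of such copies are uncertain for that reason, whichever way they moved.

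**Figure D3:**
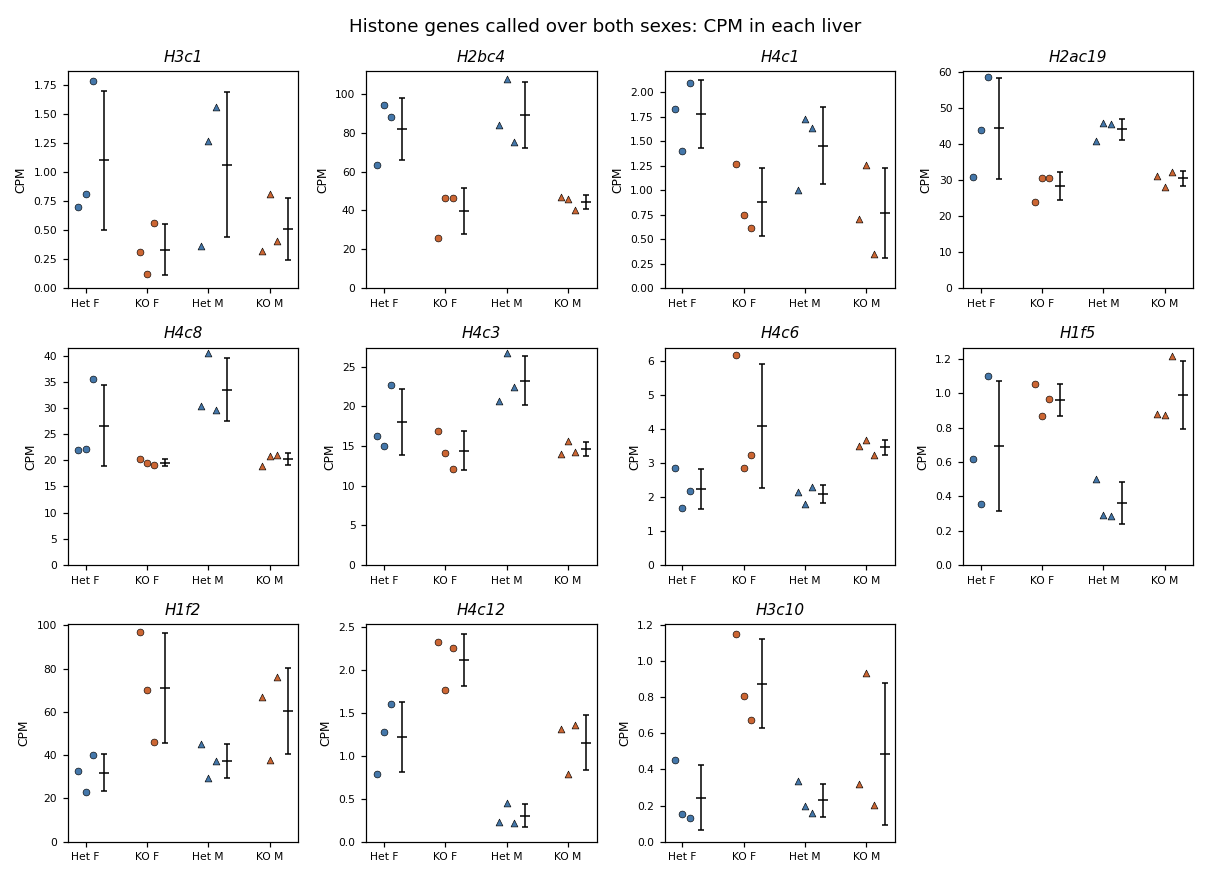
CPM in each liver of the 11 histone genes with an adjusted p under 0.05 over both sexes, from the lowest log2 fold change (H3c1, -1.29) to the highest (H3c10, 1.28). Points are livers (circles, females; triangles, males) and bars are the mean ± SD of 3 livers. The panels differ in scale, from 1.15 CPM at most for H3c10 to 107.8 CPM at most for H2bc4.

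Linker histones sit on the DNA between nucleosomes, and the H1 family shifted in make-up without a difference in its sum that separated the genotypes. H1f2 measured 32.8, 23.1 and 39.9 CPM in the Het females and 45.2, 29.5 and 37.2 in the Het males. It reached 96.7, 69.9 and 45.9 CPM in the KO females and 66.7, 37.9 and 76.1 in the KO males. The KO livers were higher except for KO_M_122, which lay among the Het livers. The log2 fold change was 0.92 (SE 0.22, adjusted p = 0.0148 by edgeR), or 1.89-fold. As a share of the summed H1 TPM, H1f2 held 25.9, 27.7 and 31.6% in Het livers and 38.4, 41.3 and 57.8% in KO livers, so that all KO livers, KO_M_122 included, were above all Het livers by this measure. The other H1 genes together held 81.1 to 135.9 CPM in Het and 80.5 to 153 CPM in KO livers.

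H1f0, the linker histone of resting and differentiated cells, measured 47.0, 65.2 and 74.2 CPM in Het livers and 49.99, 58.1 and 75.0 CPM in KO livers (log2 fold change -0.09, SE 0.11, adjusted p = 0.631). H1f4 measured 26.2, 43.9 and 53.3 CPM and 20.9, 39.3 and 65.0 CPM (-0.06, SE 0.27, adjusted p = 0.891), and it overlaps H2bc6 and Gm11398 on the same strand. The genotypes overlapped widely for both genes. H1f5 was scarce, with 0.288 to 1.102 CPM in Het and 0.867 to 1.22 CPM in KO livers, and rose (0.88, SE 0.26, adjusted p = 0.0299). H1f1 measured 0.867 to 1.71 and 0.495 to 1.11 CPM (-0.60, SE 0.22, adjusted p = 0.0684) and H1f3 measured 6.18 to 13.9 and 4.71 to 10.9 CPM (-0.46, SE 0.23, adjusted p = 0.175), and neither passed the test.

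**Figure D4:**
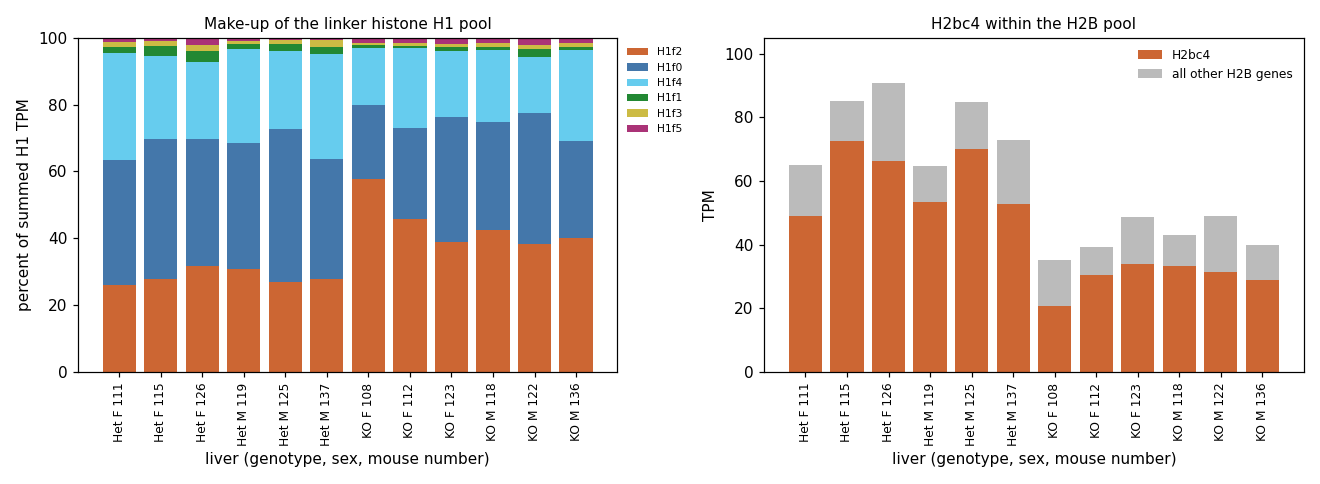
Left, share of the summed H1 TPM held by each tested H1 gene in each liver, named by genotype, sex and mouse number. Right, TPM of H2bc4 and of all other H2B genes. The H1f2 share is 31.6% at most in Het livers and 38.4% or more in KO livers, and H2bc4 is at 49.0 to 72.7 TPM in Het livers and 20.6 to 34.01 TPM in KO livers.

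The H3 genes were the scarcest family. H3c6, the highest of them at a mean of 6.17 TPM, measured 3.98 to 9.31 CPM in Het and 5.07 to 6.63 CPM in KO livers (log2 fold change -0.07, SE 0.18, adjusted p = 0.823). H3c10 rose from a median of 0.178 to 0.738 CPM (1.28, SE 0.38, adjusted p = 0.0310) and H3c1 fell from 1.04 to 0.362 CPM (-1.29, SE 0.40, adjusted p = 0.0384). The calls of H3c10, H3c1, H1f5 and H4c1 were lost when 1 of 6, 7, 5 and 8 of the livers was left out. H3c10 and H3c1 rested on few reads, 5 to 37 counts per liver for H3c10 and 4 to 83 for H3c1, and share 94.2% and 58.9% of their 31-base words with other genes. H3c10 measured 1.15, 0.805 and 0.670 CPM in the KO females and 0.317, 0.933 and 0.203 CPM in the KO males, which overlapped, and the genotypes did not overlap among females but did among males. The next genes by level, H3c13 (-0.31, SE 0.26, adjusted p = 0.407) and H3c11 (0.31, SE 0.29, adjusted p = 0.478), did not pass. In the other families H2ac20 (-0.33, SE 0.19, adjusted p = 0.233), H2bc3 (-0.75, SE 0.29, adjusted p = 0.0822) and H2bc8 (-0.18, SE 0.24, adjusted p = 0.626) did not pass either.

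Within each sex fewer histone genes passed. Among females H1f2 rose (log2 fold change 1.15, SE 0.32, adjusted p = 0.0428 by edgeR) and H2bc4 fell (-1.05, SE 0.23, adjusted p = 0.0173), which is 1 of 61 in each direction against 5.94% higher and 5.10% lower among all genes. With library size alone as the scaling, both calls among females were lower (2 of 61). Among males H4c12 rose (1.75, SE 0.36, adjusted p = 0.0151), and H2bc4 (-1.01, SE 0.23, adjusted p = 0.0224), H4c3 (-0.67, SE 0.18, adjusted p = 0.0421) and H4c8 (-0.72, SE 0.19, adjusted p = 0.0360) fell. These are 1 higher and 3 lower of 61, against 4.47% and 2.98% of all genes, and 1 higher and 1 lower with library size alone. H2bc4 was the gene called in both sexes, with near-equal values. Livers of the genotypes did not overlap among females for 4 histone genes that were higher and 11 that were lower in KO, against 15.8% and 14.7% of all genes, and among males for 5 and 9, against 16.8% and 15.4%. With any 1 liver left out the counts called ranged from 1 to 3 in females and from 0 to 6 in males. The shares of all genes in these alternative fits are not given here.

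Whether the genotype effect differed between the sexes was tested directly, as the log2 fold change of males minus that of females. No histone gene was called by edgeR, against 0.0362% of all genes with a positive and 0.0103% with a negative difference, and DESeq2 called none either. At an unadjusted p under 0.05 there was 1 histone gene of 61, against 9.28% of all genes. It was H4c12 (difference 0.997, SE 0.45, adjusted p = 0.533). For H1f2 the difference was -0.46 (SE 0.45, adjusted p = 0.766) and for H2bc4 0.04 (SE 0.32, adjusted p = 0.980). Over the 61 genes, 38 had a negative value in both sexes and 13 a positive one, so that 83.6% had the same sign, against 68.4% of all tested genes.

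**Figure D5:**
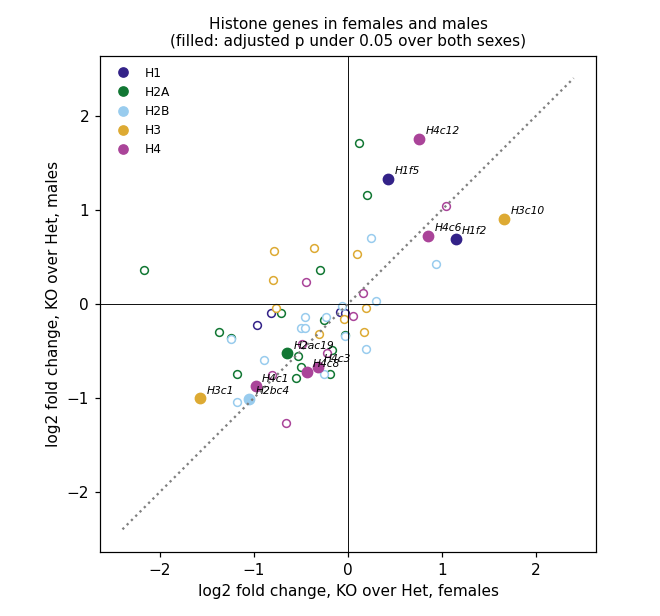
Log2 fold change (KO over Het) of the 61 tested histone genes in females and in males, coloured by family, with the 11 genes called over both sexes filled and named. The dotted line marks equal values. The filled points lie in the quadrants where both sexes have the same sign, with H2bc4 at -1.05 in females and -1.01 in males and H4c12 at 0.76 and 1.75.

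The machinery that makes and ends histone messages was compared by its own list. Of 24 genes for histone transcription and stem-loop processing, all tested, 3 passed by edgeR, all lower. That is 12.5% of the list, near the 10.2% lower among all genes, and its median log2 fold change was -0.05. Slbp, the stem-loop binding protein, measured 9.82, 10.9 and 12.3 CPM in Het livers and 6.72, 8.30 and 9.92 CPM in KO livers (-0.40, SE 0.12, adjusted p = 0.0374). Ncbp2, a subunit of the nuclear cap-binding complex, fell without overlap of the livers (-0.59, SE 0.13, adjusted p = 0.0080), and the transcription factor Yy1 fell as well (-0.32, SE 0.10, adjusted p = 0.0438). Npat, the activator of histone transcription at the start of S phase, measured 9.87 to 14.7 CPM in Het and 11.4 to 19.5 CPM in KO livers (0.30, SE 0.14, adjusted p = 0.140).

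Replication-independent variant histones, which replace the S-phase histones outside replication, passed in 3 of 9 tested genes, all lower, against 10.2% lower and 12.2% higher among all genes, and their median log2 fold change was -0.33. H2az1 measured 29.7, 32.8 and 40.4 CPM in Het livers and 19.5, 25.2 and 27.7 CPM in KO livers, without overlap (log2 fold change -0.47, SE 0.10, adjusted p = 0.0068 by edgeR). H3f3a (-0.42, SE 0.08, adjusted p = 0.0055) and H2az2 (-0.44, SE 0.12, adjusted p = 0.0221) fell too. H3f3b, which with H3f3a encodes the variant H3.3 protein, measured 81.8 to 245 and 127 to 206 CPM (0.15, SE 0.29, adjusted p = 0.751). Of 25 histone chaperones, 3 rose and 2 fell, or 12% and 8% against 12.2% and 10.2% of all genes, with a median of 0.02. Chaf1a, the large subunit of the replication-coupled chaperone CAF-1, rose without overlap (1.16, SE 0.24, adjusted p = 0.0066), Rbbp4, which is a subunit of CAF-1 and other complexes, fell without overlap (-0.72, SE 0.09, adjusted p = 0.000512), and Cabin1 rose (0.47, SE 0.13, adjusted p = 0.0230).

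Genes of cell division gave no uniform direction beside the histones. Of 42 replication and S phase genes 1 rose, the licensing factor Cdt1 (log2 fold change 0.76, SE 0.21, adjusted p = 0.0242 by edgeR), and 4 fell, among them Mcm10 (-1.74, SE 0.43, adjusted p = 0.0181), and the median was -0.11. These are 2.38% higher and 9.52% lower, against 12.2% and 10.2% of all genes. DESeq2 called 2 higher and 7 lower in this list. Mcm10 varied from 7.91 to 107 CPM among Het livers. Pcna (0.02, SE 0.09, adjusted p = 0.921) and Mcm2 (0.32, SE 0.16, adjusted p = 0.177) did not pass. Of 20 mitosis genes neither edgeR nor DESeq2 called any, against 12.2% higher and 10.2% lower of all genes by edgeR. At an unadjusted p under 0.05 by edgeR there were 2, against 36.1% of all genes, and the median of the mitosis genes was 0.38. The 3 of lowest p were Cdc20 (0.96, SE 0.41, adjusted p = 0.116), Kif20a (0.48, SE 0.22, adjusted p = 0.132) and Cenpe (0.59, SE 0.33, adjusted p = 0.217). Mki67 measured 1.17 to 5.38 CPM in Het and 1.92 to 8.69 CPM in KO livers (0.53, SE 0.40, adjusted p = 0.363) and Top2a 0.651 to 3.04 and 0.589 to 4.05 CPM (0.21, SE 0.45, adjusted p = 0.781). Of 13 other tested RNAs without a canonical poly(A) tail, 4 rose (30.8%) and 1 fell (7.69%), against 12.2% and 10.2% of all genes. Those that rose were the RNase P and MRP RNAs Rprl3 (0.53, SE 0.08, adjusted p = 0.0012 by edgeR), Rpph1 (0.39) and Rmrp (0.37) and the Y RNA Rny1 (0.81). The telomerase RNA Terc fell (-1.27, SE 0.21, adjusted p = 0.0020 by edgeR).

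Markers of liver cell types were set beside these results, in short lists of 4 to 8 genes. Among all tested genes 12.2% were higher and 10.2% lower in KO livers. Of 4 endothelial markers 2 fell (50%), with a summed level of 142 to 268 CPM in Het and 101 to 181 CPM in KO livers. Of 4 stellate cell markers 2 fell (50%), with 206 to 403 and 106 to 207 CPM. Of 5 macrophage markers 2 rose (40%), with 80.3 to 208 and 106 to 329 CPM, and by sex 0 were called in females and 1 in males. The endothelial, stellate and macrophage sums each overlapped between genotypes over all livers and among males, but not among females. Endothelial sums were 185 to 268 CPM in Het females and 101 to 173 CPM in KO females. Stellate sums were 318 to 403 and 113 to 128 CPM, and macrophage sums 156 to 208 and 215 to 329 CPM, in the same order. None of 6 lymphocyte or 4 cholangiocyte markers was called by edgeR or DESeq2 or had an unadjusted p under 0.05 (0 in each list). Of 4 tested erythroid markers 1 rose and 1 fell (25% each). The 8 granulocyte precursor markers summed to 0.0325 to 0.281 CPM in Het and 3.04 to 11.1 CPM in KO livers. Only Prtn3 passed the filter on low counts, which it did through the KO livers, so its test carries no further weight, and 1 of the 8 had no count in any liver. Of 6 hepatocyte markers 3 fell (50%) and 0 rose by edgeR, while DESeq2 called 3 lower and 1 higher. Their sums were 60061 to 78897 CPM in Het and 72595 to 127046 CPM in KO livers. These sums overlapped and reached higher in KO livers, unlike the direction of the 3 calls. The part of cell composition in the histone values was not tested.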

How the data were processed

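RNA of 12 mouse livers was analysed. The authors prepared stranded total RNA libraries after ribosomal RNA depletion and aligned paired reads with STAR 2.7.9a to GRCm39. Salmon 1.10.1 gave the deposited estimated counts per gene and the deposited TPM, with GENCODE M34. The estimated counts (12.0% not whole) were rounded. TPM, which keeps no depth, served for levels, shares and alternatives, and the deposited length-scaled estimated counts served as an alternative. Genes with 5 reads or more, scaled to the median library, in no fewer than 3 livers were tested, 19350 of 57180.

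TMM scaling and the edgeR 4.0.16 quasi-likelihood test (R 4.3.3, robust, prior count of 2) were applied with a mean for each group and contrasts over both sexes, in each sex and for their difference. Standard errors came from the F statistic. An adjusted p under 0.05 was called. On simulated counts of 19350 genes for the contrast over both sexes, 75% of genes changed by 1 on the log2 scale and 100% of those changed by 2 were recovered. The changed genes were drawn only from above a floor on mean count, with a spread taken from the trend over genes. The scarcest tested histone genes lay below that floor, so these shares do not cover them. Alternatives used DESeq2 1.42.0, limma 3.58.1 on log2(TPM + 1) and log2(TPM + 0.1), other scalings and filters, and each liver left out. The p-values measure the spread between mice.

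Members and lists were chosen with earlier results of these data known. Named genes were all called members, the 3 tested genes of highest mean TPM per family, all tested H1 genes, the 3 of lowest p in each list of histone processing, variants, chaperones, replication, mitosis and other RNAs (1 of the replication list is not reported here), and Xpa, Ercc8, Slbp, Npat, Mki67, Top2a, Pcna, Mcm2, H2az1 and H3f3b. Of 18 variant histone names 12 were found in the table. Where rows shared a name, the one of highest mean count was used in lists. Coordinates and sequences come from GRCm39 with GENCODE M39.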

Additional observations from a re-analysis of the deposited data

Results flagged for a closer look

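Within each genotype, the 6 livers were compared for the 11 called genes and the 5 family sums, 32 comparisons in all, and a liver was singled out when its gap to the nearest other liver exceeded 0.625 of the range. Chance singles out about 1 in 20 such groups. All 3 cases were liver KO_F_108. H2bc4 was 25.8 CPM in that liver, against 40.01 to 46.8 CPM in the other KO livers. H4c6 was 6.17 CPM, against 2.85 to 3.67 CPM. Summed H2A was 39.98 CPM, against 47.2 to 50.7 CPM. Without that liver 3 histone genes rose and 6 fell over both sexes, and both H2bc4 and H4c6 were still called. These are 4.92% higher and 9.84% lower, against 9.92% and 9.23% of all genes in the same fit.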

How the results depend on the processing

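No paired analysis was possible because replicate numbers are mouse numbers and the labels do not give the litter. The study calls the Het mice littermates, so any effect of litter was left out of the model. Over both sexes the count of called histone genes was 10 to 12 under other scalings, no filter, DESeq2, limma, length-scaled or unrounded counts and the older quasi-likelihood method, which was chosen after seeing the data, and fell to 7 (of 30 tested) with at least 10 reads in every liver. Leaving out 1 liver gave 6 to 15, with 6 without Het_M_125, 7 without Het_M_137 and 15 without KO_M_122. The share of all genes called moved too. DESeq2 called 13.9% of all genes higher and 12.2% lower. Without Het_M_125 these shares were 8.82% and 7.96%, without Het_M_137 9.15% and 8.72%, and without KO_M_122 11.1% and 9.37%. H2bc4, H2ac19, H4c8, H4c3, H1f2 and H4c12 kept their call under every alternative that tested them. H4c6 lost it without Het_M_125 (adjusted p = 0.0502), H1f5 without Het_F_111, Het_M_125, Het_M_137, KO_F_108 or KO_M_136, H3c10 without Het_F_115, Het_F_126, Het_M_125, Het_M_137, KO_F_108 or KO_M_122, H3c1 without Het_F_126, Het_M_125, Het_M_137, KO_F_108, KO_F_112, KO_M_118 or KO_M_136 (adjusted p up to 0.0915) and with limma, and H4c1 without Het_F_111, Het_F_126, Het_M_125, Het_M_137, KO_F_112, KO_F_123, KO_M_118 or KO_M_136 (adjusted p up to 0.0777). In females the count of 2 became 6 with DESeq2, 1 without a filter, 1 with limma on log2(TPM + 1) and 0 when only the 6 females were fitted (12 at an unadjusted p under 0.05), and 1 to 3 with 1 liver left out, with 1 without Het_F_115, Het_F_126, Het_M_119, Het_M_125, Het_M_137, KO_F_108, KO_F_112 or KO_M_118. In males the count of 4 became 2 with library size only, 2 with limma on log2(TPM + 1), and 0 to 6 with 1 liver left out, with 0 without Het_M_119 or KO_M_118 (12 and 7 at an unadjusted p under 0.05), 1 without Het_M_125, Het_M_137, KO_M_122 or KO_M_136 and 2 without KO_F_112. The shares of all genes called within each sex under these alternatives are not given here, so the counts do not set the histone genes apart. No alternative called a histone gene for the difference between the sexes. Library size alone moved the median of all genes for that difference from 0.02 to 0.16. With 1 liver left out, H1f4 ranged from -0.29 to 0.10, turning without Het_F_111 (0.06) or KO_M_122, H2bc8 from -0.35 to 0.0029, turning without Het_M_137, and H3c6 from -0.15 to 0.091, turning without Het_F_126 or Het_M_137 (0.05), none of them called. Depth was low for part of the set, at 5 to 37 counts per liver for H3c10 and 7 to 84 for H4c12. The cause of these changes was not tested.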
